A study of Drosophila melanogaster with 6 samples.

Results

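Integrins and the proteins that fasten the larval body wall muscles to the tendon cells of the epidermis were followed through 10 genes of the 11621 in the deposited table. The genes were chosen by name: mys, if, mew and scb, which encode integrin subunits, rhea, Ilk, stck and by, which encode proteins on the inner face of the membrane, and wb and Tsp, which encode proteins of the matrix outside it. Each name matched 1 row. The RNA came from cuticles, that is, larval body walls with their skeletal muscles after removal of the internal organs, and each sample pooled the cuticles of many larvae. The 3 control samples were from w1118 larvae at 7 days after egg laying. The 3 tumour-bearing samples were from larvae at 10 days after egg laying with RasV12, scrib1 clones. They carried y, w and ey-flp, with act5C>y+>GFP placed over UAS-RasV12 and FRT82B, tub-gal80 placed over FRT82B, scrib1. In these larvae the eyeless-driven flippase makes clones in the eye discs, and those clones lose scrib and express activated Ras, while the body wall that was sequenced is mostly host tissue. Age, genetic background and the tumour change together between the groups, and the column headers give every sample a sequencing lane of its own, so these cannot be told apart. Nothing says that the 3 samples of a group came from separate cultures, so the p-values rest on a spread among samples that may be only technical.

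An integrin is a pair of transmembrane proteins, an alpha and a beta subunit, that binds matrix outside the cell and, through talin and its partners, the actin cytoskeleton inside. In the fly body wall the main beta subunit, encoded by mys, pairs with the alpha subunit encoded by if on the muscle side of each attachment site and with the one encoded by mew on the tendon cell side. Flies that lack mys or if detach their muscles from the epidermis once the muscles begin to contract. The alpha subunit encoded by scb is known, among other places, from the trachea and from dorsal closure of the embryo.

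The total was 62617114 to 84149121 counts per sample. Fold changes are tumour-bearing over control on the log2 scale, where 1 unit is a 2-fold change. They come from edgeR's quasi-likelihood test on the raw counts with TMM scaling, and a gene was called at an adjusted p under 0.05 over the 10074 genes tested. For a normalized count, the count of a gene was divided by the library size after TMM scaling and multiplied by the mean of the scaled sizes. The scaling weighs on every level here, because the share of the 20 most abundant genes was 25.9% to 35.9% in control cuticles and 10.8% to 11.6% in those of tumour-bearing larvae. All genes tested had a median log2 fold change of 0.01 with TMM, 0.13 with upper-quartile factors and 0.94 where libraries were scaled to their total counts. Control replicate 3 stood apart from the other control samples in its muscle genes, and in some other genes given below. The 14 contractile muscle genes that were measured held 7.99%, 11.4% and 3.90% of the counts in control replicates 1, 2 and 3, and 2.10%, 2.77% and 3.03% in the tumour-bearing samples. In such mixed tissue, fewer cells of a type and less RNA per cell cannot be told apart.

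The beta subunit mys, the tendon-side alpha subunit mew and the laminin gene wb rose in the cuticles of tumour-bearing larvae, by 2.08-fold, 1.74-fold and 2.45-fold. The other 7 genes did not pass the test, and their log2 fold changes lay between -0.12 for if and 0.33 for stck. All 10 genes passed the filter on low counts. Of them 3 rose and 0 fell, where 23.8% of all genes tested rose and 23% fell, so the share that rose was near that of all genes. With DESeq2 too 3 rose and 0 fell, where 25.1% and 25.8% of all genes did, and at an unadjusted p under 0.05 the edgeR counts were again 3 and 0. The share of all genes at that unadjusted p was not counted, here or for the lists below, so these counts cannot be set against it. The median log2 fold change of the 10 genes was 0.28, against 0.01 for all genes tested. The groups did not overlap for 5 of the 10 genes, mys, mew, wb, Ilk and stck, which all lay higher in the tumour-bearing samples. Over all genes tested, 61.6% did not overlap, 31.9% with the tumour-bearing samples above and 29.7% with them below. Of each library, the 10 genes together made up 0.143%, 0.145% and 0.133% in the controls and 0.346%, 0.372% and 0.351% with tumours. These shares are of total counts, without TMM scaling. With it, their summed normalized counts differed far less, at 153382, 175060 and 120705 in the controls against 189415, 213761 and 185590 with tumours.

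**Figure D1:**
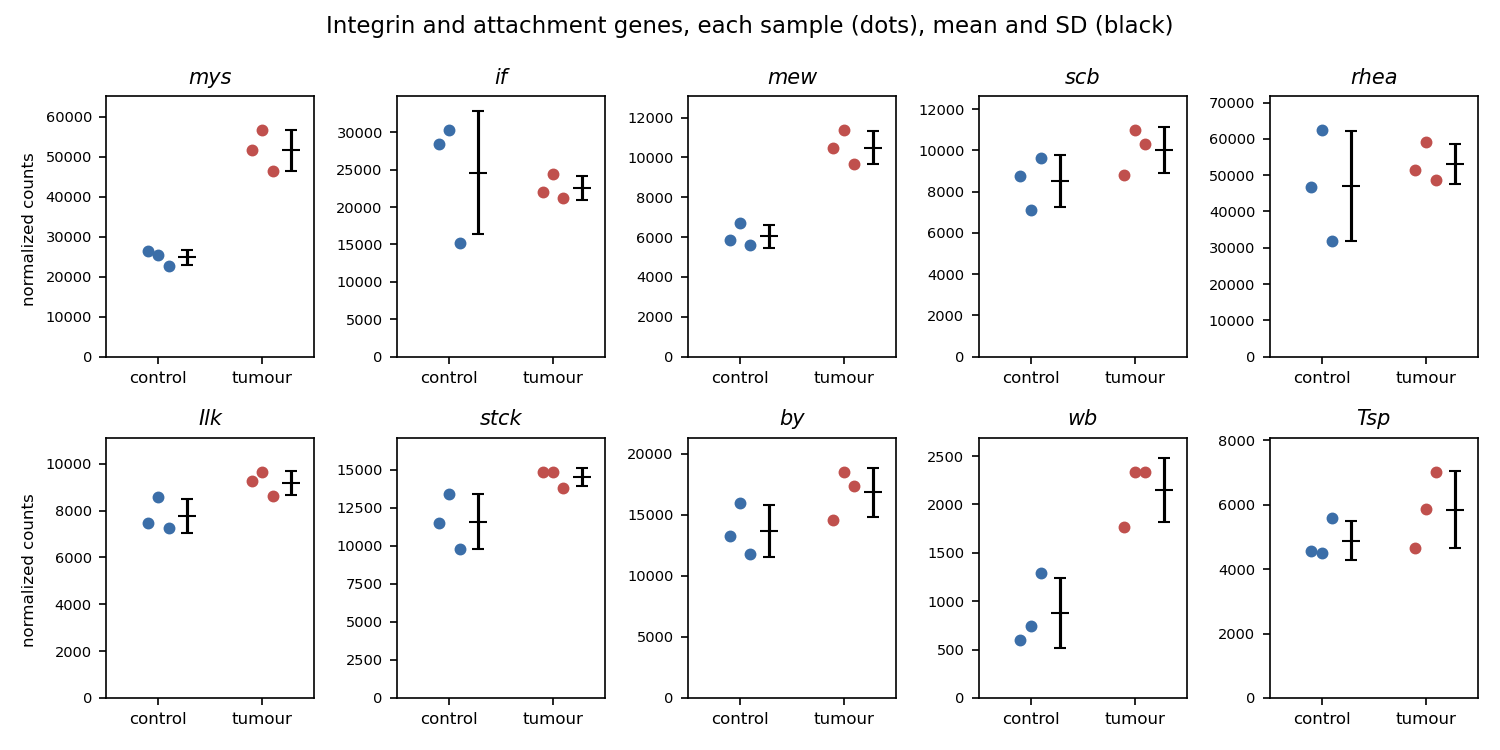
Normalized counts (linear axis from 0) of the 10 genes in each of the 3 control (blue) and 3 tumour-bearing (red) samples, with the group mean and SD in black. For mys all tumour-bearing samples lie at or above 46475 and all control samples at or below 26304, whereas for if the control samples reach from 15174 to 30238 and enclose the tumour-bearing ones.

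The gene mys (FBgn0004657), on chromosome X from 8061645 to 8070237 in the BDGP6 annotation, had 26304, 25456 and 22709 normalized counts in control replicates 1 to 3. In tumour-bearing replicates 1 to 3 it had 51655, 56584 and 46475. The lowest tumour-bearing sample thus lay well above the highest control sample, and the samples within a group were close to each other. The log2 fold change was 1.05 (standard error, SE, 0.15; adjusted p = 0.00317 by the quasi-likelihood test of edgeR). This call held under each of the 14 alternatives tried, where the log2 fold change was 0.97 to 1.99.

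Of the alpha subunits among the 10 genes, mew rose, and if and scb did not pass the test. For mew (FBgn0004456, chromosome X from 13214409 to 13258490), the control samples had 5852, 6693 and 5585 normalized counts. The tumour-bearing samples had 10463, 11359 and 9670, all above every control sample, and the log2 fold change was 0.80 (SE 0.12, adjusted p = 0.00447 from the same test). This gene too was called under all 14 alternatives, from 0.72 to 1.74. The muscle-side subunit if (FBgn0001250, chromosome X from 16752189 to 16783434) had 28387, 30238 and 15174 normalized counts in the controls against 22060, 24408 and 21238 with tumours. Control replicate 3 was the lowest of the 6 samples and the other control samples were the highest, so that the groups overlapped. The log2 fold change of if was -0.12 (SE 0.28, adjusted p = 0.733). Without control replicate 3 it was -0.40 (adjusted p = 0.0494), which passes the test as lower, while with total counts if was higher (0.85, adjusted p = 0.00991). Control replicate 3 was also the lowest of the control samples for the contractile muscle genes given above, and the part of this in the level of if was not tested. The subunit scb (FBgn0003328, on chromosome arm 2R) had 8781, 7121 and 9637 normalized counts in the controls against 8808, 10969 and 10330 with tumours. These ranges overlap, and the log2 fold change was 0.24 (SE 0.16, adjusted p = 0.258 by the quasi-likelihood test of edgeR).

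On the inner face of the membrane, rhea encodes talin, which binds the tail of the beta subunit and actin. Its levels (FBgn0260442, chromosome 3L from 8545001 to 8574409) were 46674, 62330 and 31888 normalized counts in the controls against 51303, 59146 and 48656 with tumours. The tumour-bearing samples lay inside the range of the control samples, of which replicate 3 was again the lowest, and the log2 fold change was 0.18 (SE 0.27, adjusted p = 0.612 from the same test) or -0.06 without that replicate. Ilk, the integrin-linked kinase homologue, and stck, the fly PINCH protein, form a complex with parvin that steadies the link to actin. For Ilk (FBgn0028427, chromosome 3L from 21216901 to 21219240) the values were 7459, 8591 and 7254 in the controls against 9247, 9660 and 8615 with tumours. For stck (FBgn0020249, chromosome 3R from 8356978 to 8359964) they were 11492, 13435 and 9815 against 14835, 14883 and 13829. In both genes the lowest tumour-bearing sample lay just above the highest control sample. Their log2 fold changes of 0.24 (SE 0.12, adjusted p = 0.138) and 0.33 (SE 0.15, adjusted p = 0.121) did not pass edgeR's test, although both passed with upper-quartile factors. The tensin gene by (blistery, FBgn0000244, chromosome 3R from 9528238 to 9533011), whose product joins integrin sites that carry load, had 13259, 15952 and 11777 normalized counts in the control samples. Tumour-bearing samples had 14612, 18546 and 17410, with overlap between the groups and a log2 fold change of 0.30 (SE 0.17, adjusted p = 0.186).

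Of the matrix genes, wb (wing blister, FBgn0261563, chromosome 2L from 14263027 to 14328262) encodes a laminin alpha chain that integrins bind. It had 598, 739 and 1287 normalized counts in the controls against 1771, 2337 and 2338 with tumours. Control replicate 3 was the highest of its group but still below every tumour-bearing sample, and the log2 fold change was 1.29 (SE 0.31, adjusted p = 0.0181 by the quasi-likelihood test of edgeR). The call was lost without control replicate 2 (1.19, adjusted p = 0.0514), without tumour replicate 2 (1.23, adjusted p = 0.0628) and without tumour replicate 3 (1.23, adjusted p = 0.0551), and held under the other 11 of the 14 alternatives. At the stricter threshold of 0.01, wb did not pass. Tsp (FBgn0031850, chromosome 2L from 6686791 to 6709086) encodes thrombospondin, which tendon cells secrete and which the integrin of muscle binds at the attachment site. Its values were 4576, 4504 and 5580 normalized counts in the controls against 4661, 5869 and 7029 with tumours. The highest control sample exceeded the lowest tumour-bearing one, and the log2 fold change was 0.26 (SE 0.18, adjusted p = 0.275).

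**Figure D2:**
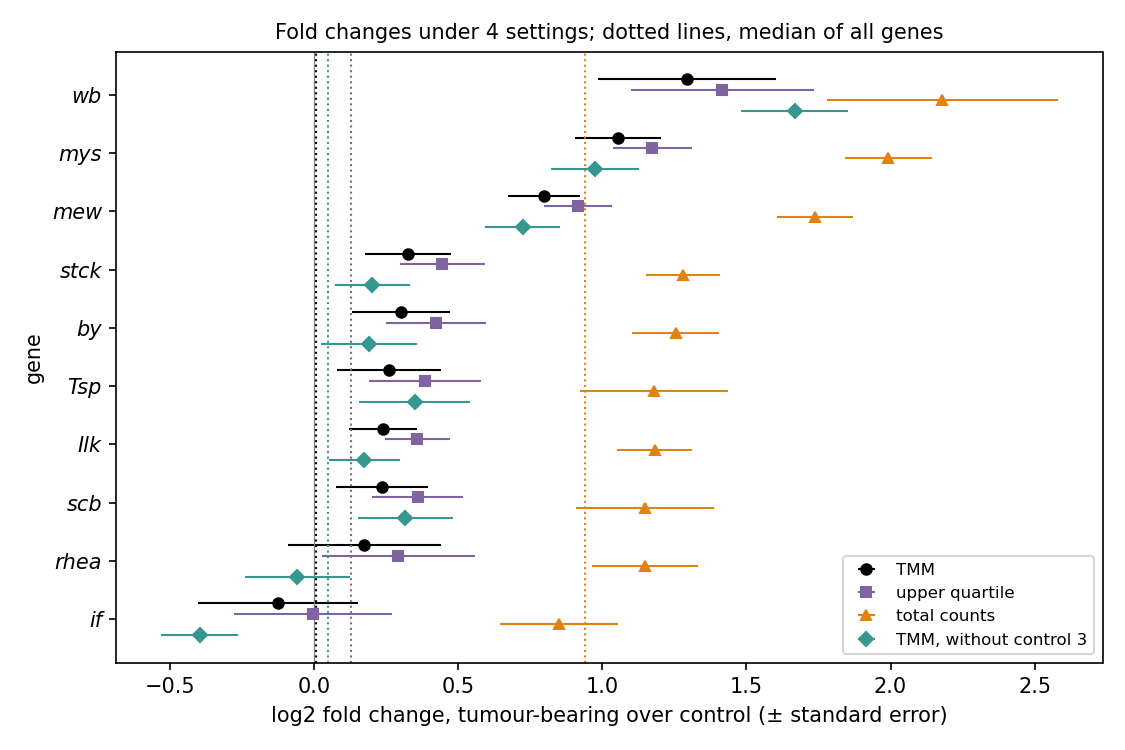
Log2 fold change (tumour-bearing over control, ± standard error) of the 10 genes with TMM, upper-quartile and total-count scaling, and with TMM without control replicate 3; dotted lines mark the median of all genes in each setting. With total counts every gene shifts right together with the median of all genes, which moves to 0.94.

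The number of genes called depended on the scaling. With total counts all 10 passed as higher and 0 as lower, where 61.4% and 6.9% of all genes did. With upper-quartile factors 5 passed as higher, namely mys, mew, wb, Ilk and stck, and 0 as lower, where 28.4% and 18.9% of all genes did. Relative to the median of all genes under total counts, the log2 fold change was 1.05 for mys, 0.80 for mew, 1.24 for wb and -0.09 for if, and the other 6 lay between 0.21 and 0.34.

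To compare levels between genes, normalized counts were divided by the length of all annotated exons of a gene in kb. On this scale stck had the highest level in the control samples, with 7316 ± 1144 (SD, n = 3) per kb, followed by mys with 5538 ± 419 (SD, n = 3). Next came rhea (4237 ± 1374), if (4092 ± 1367), Ilk (3499 ± 324) and by (2862 ± 443), each of whose ranges overlapped that of its neighbour, the range of rhea also that of mys. Below them stood scb (1701 ± 256), mew (1161 ± 111) and Tsp (974 ± 120), of which mew and Tsp overlapped, and wb was lowest by far with 62.9 ± 26.2 per kb. In the tumour-bearing samples mys stood first, with 11506 ± 1128 (SD, n = 3) per kb, above stck with 9170 ± 376 (SD, n = 3), and their ranges did not overlap. The level of mew there, 2017 ± 162 per kb, was beside that of scb, 2006 ± 222 per kb, with overlapping ranges, and that of wb was 154.5 ± 23.5 per kb, still the lowest.

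Ratios between genes of the same sample do not depend on library scaling. Per kb, mew stood to if as 0.238, 0.256 and 0.425 in the control samples and as 0.548, 0.538 and 0.526 in the tumour-bearing samples. The ratio thus varied among the controls, was nearly the same in all tumour-bearing samples, and did not overlap between the groups, with a difference of 0.86 on the log2 scale. The ratio of if to mys was 0.805, 0.886 and 0.498 in the controls against 0.318, 0.322 and 0.341 with tumours, a log2 difference of -1.12. Talin followed the same course, with rhea to mys at 0.718, 0.990 and 0.568 in the control samples and at 0.402, 0.423 and 0.423 in the tumour-bearing samples, a log2 difference of -0.83. These 3 ratios separated the groups, each with p = 0.10 in a two-sided exact permutation test over samples, the smallest value that 3 against 3 allows (adjusted p = 0.20 over the 6 ratios compared, which does not pass). For stck to Ilk, the ratio was 2.16, 2.19 and 1.90 in the controls against 2.25, 2.16 and 2.25 with tumours, with overlap between the groups. Its log2 difference was 0.09 (exact permutation p = 0.30). The log2 difference of scb to if was 0.31, with overlap between the groups (exact permutation p = 0.60), and was 0.0011 without control replicate 2. For wb to LanA, the other laminin alpha chain, it was -0.87, also with overlap (exact permutation p = 0.20).

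The table also holds the remaining integrin subunits of the fly, and all 3 of them rose. Itgbn, the other beta subunit, which is known from the larval midgut and from haemocytes, had 95.3, 169.9 and 214.7 normalized counts in the controls against 1645, 1610 and 2106 with tumours (log2 fold change 3.48, SE 0.33, adjusted p = 0.00112 by the quasi-likelihood test of edgeR). The alpha subunit ItgaPS5 had 58.4, 97.8 and 39.9 normalized counts in the controls against 1252, 881 and 962 with tumours (log2 fold change 3.99, SE 0.38, adjusted p = 0.00112). ItgaPS4, named after its values were seen, had 23.1, 36.9 and 63.7 normalized counts in the controls against 135.9, 230.6 and 277.6 with tumours (log2 fold change 2.37, SE 0.48, adjusted p = 0.0103). These stayed minor among the subunits. Of the counts per kb of both beta subunits, mys held 98.7% to 99.5% in the control samples and 94.3% to 96.3% in the tumour-bearing samples. Of those of the 5 alpha subunits, if held 61.9%, 64.6% and 45.4% in the controls against 46.6%, 46.3% and 45.1% with tumours. The share of mew was 16.9% ± 2.31 (SD, n = 3) in the controls and 24.7% ± 0.929 (SD, n = 3) with tumours, without overlap between the groups, while that of scb was 25.3% ± 8.43 and 24.6% ± 2.02.

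**Figure D3:**
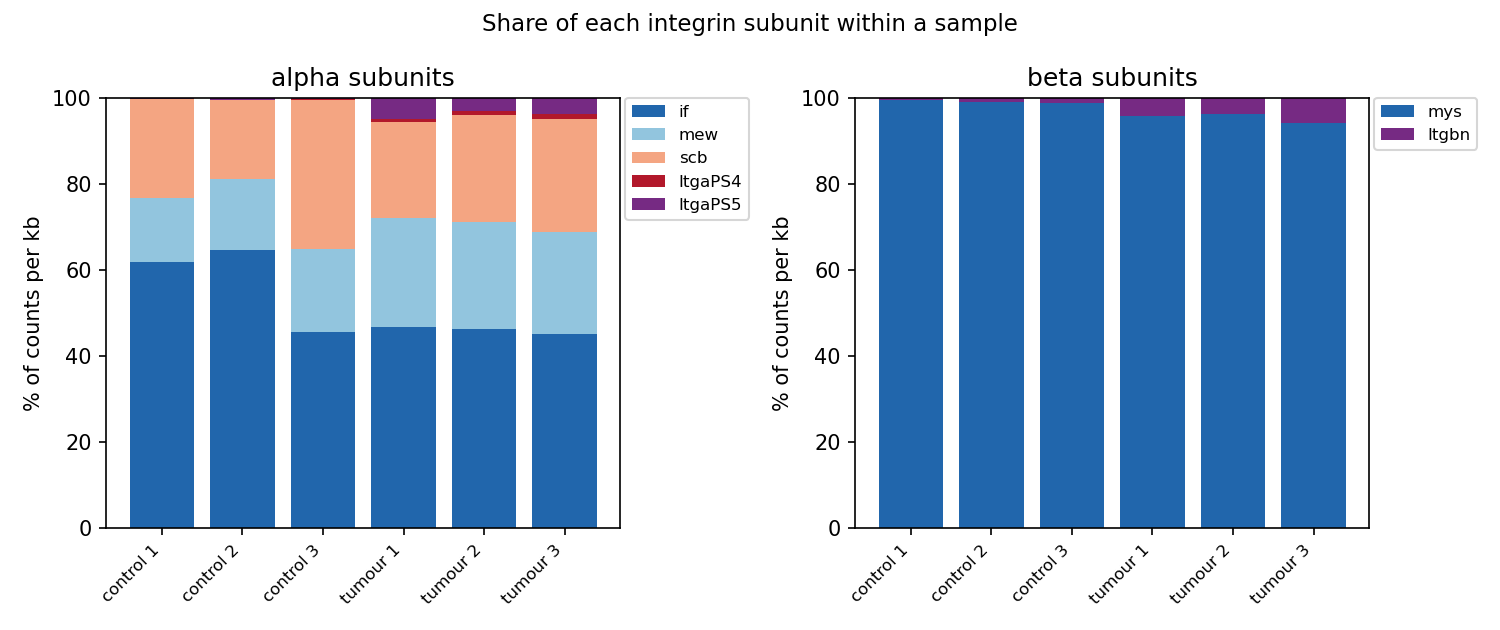
Share (%) of each alpha subunit (left) and beta subunit (right) in the summed counts per kb of its family, stacked for each of the 6 samples. Control replicate 3 has about the same share of if, 45.4%, as the tumour-bearing samples, and ItgaPS5 reaches 3.13% to 4.96% in the tumour-bearing samples, against at most 0.392% in the control samples.

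Beyond the integrins, 47 listed genes of adhesion adaptors, matrix, tendon cells, the dystrophin complex and the 3 subunits above were tested, of which 23 rose and 10 fell (46.8% of all genes tested changed, 23.8% rising and 23% falling). With total counts 32 rose and 6 fell, where 61.4% and 6.9% of all genes did. The same TMM and total-count shares of all genes stand beside the counts of the single lists below. For fits with a sample left out, the share of all genes was not counted. Among the 18 adaptor and signalling genes 8 rose and 5 fell, against 4 and 5 without control replicate 1, 5 and 3 without tumour replicate 1 and 3 and 3 without tumour replicate 2, and against 11 and 3 with total counts. The direct partners of the 10 genes were split: parvin, which binds Ilk, rose from a mean of 9606 ± 551 to one of 14088 ± 1307 normalized counts (SD, n = 3; log2 fold change 0.55, SE 0.13, adjusted p = 0.0148), and the kindlin gene Fit1 and the vinculin gene Vinc rose by 0.66 (SE 0.15, adjusted p = 0.0149) and 1.07 (SE 0.24, adjusted p = 0.0150) on the log2 scale. Vinculin binds talin. The calls of parvin (0.50 to 0.55) and Fit1 (0.57 to 0.64) were lost when control replicate 1, tumour replicate 1 or tumour replicate 2 was left out, and that of Vinc (0.97) without tumour replicate 2. The other kindlin gene, Fit2, fell from a mean of 3023 ± 54.0 to one of 824 ± 126 normalized counts (SD, n = 3; log2 fold change -1.88, SE 0.13, adjusted p = 0.000559). Of the rest, the largest increases were those of p130CAS (log2 fold change 1.58), an adaptor phosphorylated at adhesion sites, and of wech (1.20), which links Ilk to talin. The largest decreases were those of Zasp66 (-2.76) and Pax (-1.97), a Z-disc protein and paxillin, and the call of Pax was lost without tumour replicate 1 (-2.00, adjusted p = 0.0519) and without tumour replicate 2 (-1.87, adjusted p = 0.0618). Of the contractile muscle genes too, 10 of 14 fell and 0 rose (11 fell and 0 rose with DESeq2, and 11 and 0 at an unadjusted p under 0.05 with edgeR), with up, a troponin T, at -3.86 and the myosin light chain Mlc2 at -3.85. Among the controls, Pax, up and Mlc2 were lowest in replicate 3. Zasp66 was highest there, with 426219 normalized counts against 406628 and 381770 in control replicates 1 and 2. The part of the muscle genes in the decreases of Zasp66 and Pax was not tested.

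Among the 9 other matrix genes that were tested, 6 rose and 1 fell. The laminin alpha chain LanA had 8990, 13217 and 10492 normalized counts in the controls against 74219, 48050 and 36624 with tumours (log2 fold change 2.28, SE 0.31, adjusted p = 0.00298 by the quasi-likelihood test of edgeR). Type IV collagen moved further, with log2 fold changes of 2.60 for vkg and 2.52 for Col4a1, whereas the nidogen gene Ndg fell by 2.04 on the log2 scale. Named after their values were seen, the laminin chains LanB1 and LanB2, which assemble with LanA or wb, rose by 2.30 and 2.05, and Tig (tiggrin), a ligand of the integrin encoded by if at muscle attachments, rose by 1.82. Markers of haemocytes, blood cells that secrete laminin and collagen, were measured too. Of the 8 markers, 7 rose and 0 fell, NimC1 being the other, and none was at 0 in all samples (4 rose without control replicate 1). With DESeq2, and at an unadjusted p under 0.05 with edgeR, the counts were again 7 and 0. Their summed normalized counts were 35377, 64032 and 37309 in the controls against 305875, 169658 and 114139 with tumours, led by Sr-CI at 3.16 and srp at 2.79 on the log2 scale. Tumour-bearing replicate 1 was highest for the haemocyte markers and for LanA, vkg and Col4a1, but not for mys, mew or wb. The part of haemocytes in the levels of the matrix genes or of the 10 genes was not tested.

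Of 10 tendon cell and target recognition genes, 4 rose and 3 fell, with 1 lower when tumour replicate 1 or tumour replicate 2 was left out, and 6 rose and 1 fell with total counts. Grip and kon, which act together in muscles that grow towards tendon cells, rose by 2.06 (SE 0.47, adjusted p = 0.0160) and 1.24 (SE 0.17, adjusted p = 0.00315) on the log2 scale by the quasi-likelihood test of edgeR. Grip lost its call without control replicate 1 (1.81, adjusted p = 0.0505). Lrt, a transmembrane protein of tendon cells, had a log2 fold change of -1.17 (SE 0.26, adjusted p = 0.0135), and dp, which encodes the giant apical matrix protein dumpy, one of -2.60 (SE 0.63, adjusted p = 0.0192), and both passed as lower. For dp the controls differed widely, with 167613, 175397 and 33758 normalized counts in replicates 1 to 3. The call of Lrt was lost when tumour replicate 1 (-1.06) or tumour replicate 2 (-1.12) was left out and with total counts (-0.19), and that of dp when control replicate 1 (-2.34) or any of the tumour replicates (-2.76 to -2.49) was left out. The transcription factor gene sr (stripe), which defines tendon cells and was named after its values were seen, had 3304, 2446 and 1907 normalized counts in the controls against 2338, 2700 and 2569 with tumours. Here the tumour-bearing samples lay within the range of the controls (log2 fold change -0.01, SE 0.21, adjusted p = 0.974). Markers of fat body, trachea, nerve and epidermis were measured too, with none at 0 throughout. Of the tracheal markers 3 of 6 fell (1 without tumour replicate 1 or tumour replicate 2, and 1 fell and 3 rose with total counts), led by serp at -2.48 and verm at -2.36, both of which the epidermis also expresses, and of the nerve and glia markers 3 of 7 rose (7 with total counts), led by moody at 1.60 and Syt1 at 0.98. The call of serp was lost when tumour replicate 1 or tumour replicate 2 was left out, and that of verm without each sample but control replicate 3 and with total counts. In control replicates 1 to 3, serp had 91211, 88545 and 27988 normalized counts and verm had 112776, 123807 and 24353. Of 8 epidermal markers 6 fell and 0 rose (5 and 2 with total counts), led by the cuticle proteins Lcp3 and Lcp4 at -11.88 and -9.96. The epidermal markers grh (-0.39) and knk (-0.18), named after their values were seen, did not pass the test, with overlap between the groups. With total counts they passed as higher (0.56 and 0.73). Of 7 fat body markers 1 fell, Lsp1gamma, at -2.91, with 0 to 2 lower when single samples were left out. The call of Lsp1gamma held only without control replicate 1 or tumour replicate 1 among those fits, and not with total counts. Their part in the levels of the 10 genes was not tested.

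**Figure D4:**
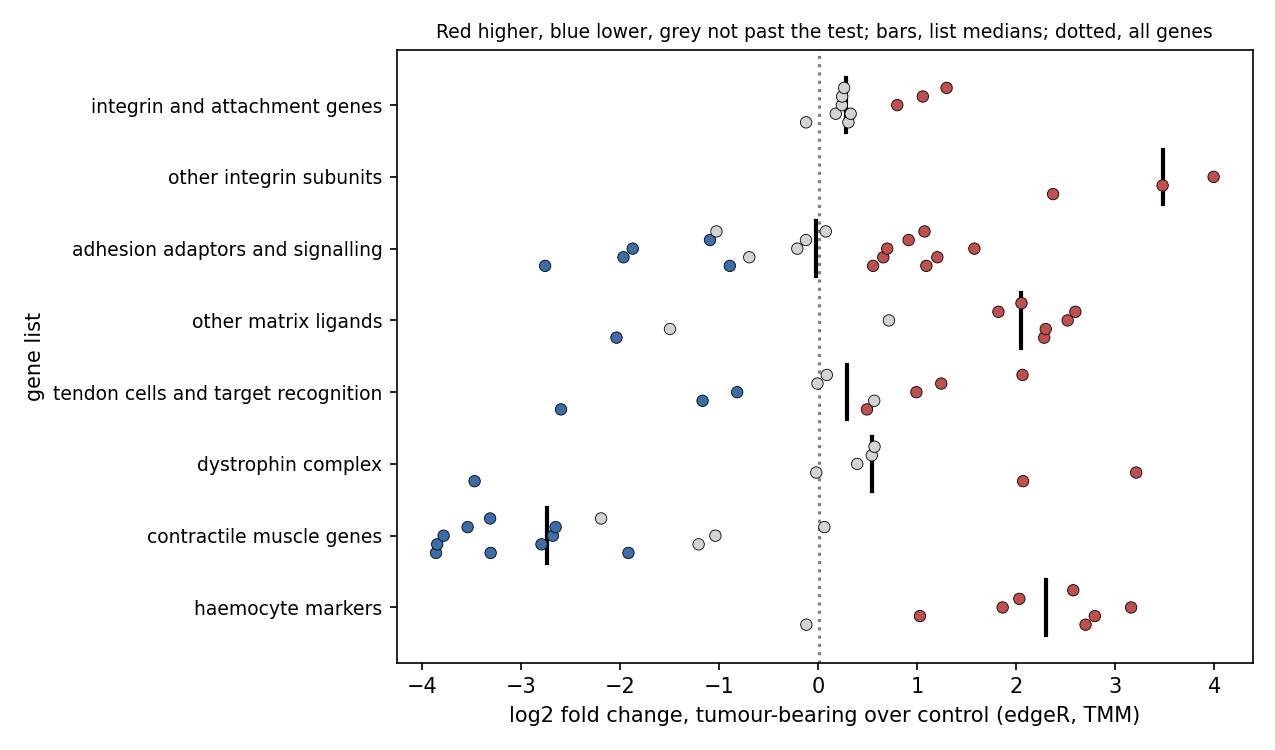
Log2 fold change (tumour-bearing over control) of each tested gene in 8 gene lists, red where it passed the test as higher, blue as lower and grey where it did not pass, with black bars at list medians and a dotted vertical line at the median of all genes. The contractile muscle genes have a median of -2.74 and the other integrin subunits lie at 2.37 or above, while 7 of the 10 integrin and attachment genes lie between -0.12 and 0.33.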

How the data were processed

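Cuticle RNA of 3 control and 3 tumour-bearing samples was compared. The authors deposited 1 table with raw counts per gene and sample, which were the only values used. Beside them it holds the authors' normalized values, means, fold changes and p-values, which were not used. Per the submitters' notes, reads went through bcl2fastq and FastQC, TopHat with Bowtie, HTSeq and DESeq2, on BDGP6. Versions and counting settings are not given in the sources used here. The library kit does not mark strand, but exons of other genes in the table covered at most 2.06% of the exons of any of the 10 genes. Gene positions and exon lengths came from the Ensembl annotation of BDGP6 (by symbol for scb, whose identifier has changed). Longer genes collect more reads, and levels per kb count all annotated exons, whether or not a sample uses them.

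Genes were kept with filterByExpr and tested in edgeR 4.0.16 (R 4.3.3) by its robust quasi-likelihood test after TMM scaling, p-values were adjusted over all genes kept (Benjamini-Hochberg), and the code was tested on simulated data. Ratios used the exact permutation test of scipy 1.17.1. As alternatives, libraries were scaled by RLE, by the upper quartile or by total counts, DESeq2 1.42.0 was run, and fits were made without the 20 most abundant genes, with no filter, with at least 10 counts in every sample, with each sample left out, with the replicate number as a block and at a threshold of 0.01. The genes and lists were chosen with earlier results of these data known. Apart from the exceptions stated, the text names the 10 genes, parvin, Fit1, Fit2, Vinc, Itgbn and LanA, the largest changes of each list (up to 2 in each direction among genes past the test) and the 3 genes nearest to mys. Of 101 listed genes beside the 10, 97 were in the table, and Mhc, how, Tnc and para were not analysed here. Protein sequences were not used here.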

Additional observations from a re-analysis of the deposited data

How the results depend on the processing

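Of the 10 integrin and attachment genes 3 rose and 0 fell, and these counts were 5 and 0 with upper-quartile factors and 10 and 0 with total counts. At a threshold of 0.01 mys and mew still passed as higher, and wb did not pass. When each sample was left out in turn, 2 to 3 rose and 0 to 1 fell, the 1 being if without control replicate 3. The median of 0.28 was 0.41 with upper-quartile factors and 1.22 with total counts, and 0.24 to 0.42 with each sample left out. Of the 47 other attachment genes, 15 rose and 5 fell at a threshold of 0.01 and 6 fell with total counts, and with each sample left out 17 to 25 rose and 5 to 12 fell, with 5 lower without tumour replicate 1 or without tumour replicate 2. Shares of all genes were not counted at 0.01, with the replicate block or with a sample left out. A change in calls over all genes therefore cannot be told apart there from one in the listed genes. The sign of if turned with total counts (0.85) and without control replicate 2 (-0.396 to 0.0363 with each sample left out), that of rhea without control replicate 3 (-0.0575 to 0.42), and that of sr with upper-quartile factors (0.11), total counts (0.94), no filter (0.0033), at least 10 counts in every sample (0.0283), the replicate block (0.0251) and single samples left out (-0.20 to 0.22). NimC1 turned with total counts (0.82) and single samples left out (-0.77 to 0.13), and slow with the replicate block (0.34) and without control replicate 3 (-2.04 to 1.92 with each sample left out). The cause was not tested. The differences of the 6 ratios kept their sign without each sample and without division by length, from 0.70 to 1.12 for mew to if, 0.0011 to 0.72 for scb to if, -1.37 to -0.95 for if to mys, -1.02 to -0.62 for rhea to mys, 0.03 to 0.13 for stck to Ilk and -1.18 to -0.47 for wb to LanA.

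The replicate numbers are shared between the groups. Same-numbered samples had correlations of -0.05, 0.07 and 0.11 in their deviations from the group means. Control replicate 1 correlated best with tumour replicate 2 (0.14), and control replicates 2 and 3 with the tumour sample of their own number. With 3 samples a group, such small values cannot settle whether the samples were paired. With the replicate number as a block 3 of the 10 genes rose and 0 fell, with a median of 0.28, and 21 of the other 47 rose and 7 fell. Of the named genes, Pax (-1.82), dp (-2.32), Scgdelta (-3.10), serp (-2.43), verm (-2.16) and Lsp1gamma (-3.20) did not pass with the block. The lowest count of the 10 genes in any sample was 389, for wb.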

Other observations

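The dystrophin complex is the other large link between matrix and cytoskeleton in muscle. Of its 7 tested genes 2 rose and 1 fell, and with total counts 5 rose and 1 fell. Syn1, a syntrophin, had 178, 301 and 207 normalized counts in the controls against 2441, 2090 and 1818 with tumours (log2 fold change 3.21, SE 0.24, adjusted p = 0.000715 by the quasi-likelihood test of edgeR). Dyb, a dystrobrevin, rose by 2.07 on the log2 scale (SE 0.26, adjusted p = 0.00235), with all tumour-bearing samples above all controls. The sarcoglycan gene Scgdelta fell, from 1116, 1478 and 170 normalized counts in the control samples to 63.4, 86.3 and 99.3 in the tumour-bearing samples (log2 fold change -3.47, SE 0.79, adjusted p = 0.0155). Control replicate 3 was nearer to the tumour-bearing samples than to the other controls, and without it the value was -3.98. The call of Scgdelta was lost without tumour replicate 1 (-3.31) and without tumour replicate 2 (-3.50).

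The secreted protein slow (slowdown), which in the embryo binds thrombospondin at the muscle attachment, was chosen after its values were seen. It had 415, 192 and 9202 normalized counts in the controls against 752, 922 and 1801 with tumours, so that control replicate 3 alone was far above the rest. Its log2 fold change was -1.50 (SE 1.40, adjusted p = 0.410) with all samples and 1.92 (adjusted p = 0.0351) without control replicate 3. Tsp itself had 5580 normalized counts in control replicate 3, the highest of the controls by a far smaller margin.

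The genes whose course over the 6 samples was nearest to that of mys, by the Euclidean distance of centred log2 normalized counts among 8386 genes, were CHKov1 (0.09), CG7457 (0.13) and BTBD9 (0.16). Among the integrin and attachment genes mew was nearest, at 0.36 and in place 155 of all genes, and if was farthest, at 1.51 and in place 3881.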
